A study of Mus musculus with 16 samples.

Results

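The normal transcript programmes of MPP3 and MPP4, a pair of multipotent progenitor populations of mouse bone marrow, were compared in the 8 WT libraries of a series of 16 libraries, chosen by their genotype label alone. The 4 WT mice each provided an MPP3 and an MPP4 library under 1 replicate number, and both libraries of a number carried the same sex and age. The strain label was C57BL/6, given as C57BL/6J in the methods of the study. The WT genotype was labelled Ebf1fl/fl Tie2Cre+/+, read here as floxed Ebf1 alleles without the Cre transgene, and the mice were 12, 11, 12 and 11 weeks old for WT1 to WT4, of which the first pair was female and the second pair male. The design text of the series instead describes control mice with unfloxed Ebf1 and the transgene, so the exact control alleles cannot be told from the labels. The mice labelled KO, used for a side comparison, were Ebf1fl/fl Tie2Cre +/cre, in which Cre is driven by the promoter of Tek (Tie2), a gene active in blood stem cells and endothelium, and their 8 libraries were paired in the same way. KO1 and KO2 were males of 10 and 9 weeks, and KO3 and KO4 were females of 11 weeks. Ebf1 RNA went against that label in MPP4, where the gene total was higher than in WT, as given with the Ebf1 values. Both populations were sorted after depletion of lineage-positive cells as LSK (lineage-negative, Sca1-positive, cKit-positive) CD150- CD48+ cells. MPP4 was further Flt3+, and MPP3 was Flt3- in the sorting panel of the study although its label does not name Flt3.

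Multipotent progenitors lie between the blood stem cell and the committed progenitors of each lineage. MPP3 cells are biased toward granulocytes and macrophages, whereas MPP4 cells, also called lymphoid-primed progenitors, express the receptor tyrosine kinase Flt3 and start to transcribe lymphoid genes before commitment. Such priming is known to mix genes of several fates at low levels, so a sorted population can hold transcripts of lineages that it does not yet belong to. In bulk RNA of sorted cells, a higher level of a transcript in more cells of a kind and more RNA in each cell cannot be told apart.

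WT library totals ranged from 24823708 to 48703193 counts, and 25140 genes had at least 1 count. Xist and Y-linked counts matched the labelled sex in 8 of 8 libraries. In a principal component analysis of the 500 most variable genes, the first component held 51.34% of the variance and separated the 4 MPP3 from the 4 MPP4 libraries, and the second held 36.29% and separated WT1 and WT2 from WT3 and WT4 within each population. The immediate early gene Fos, a transcription factor that is induced within minutes of a stimulus, moved with that second division. It measured 67.8, 192, 1761 and 961 CPM (counts scaled to a common library total, as edgeR defines it) in MPP3 of mice WT1 to WT4, and 70.6, 217, 2105 and 1070.0 CPM in MPP4. Sex divided the mice in the same way, and its part was not tested. The mouse was kept as a block in the test.

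**Figure D1:**
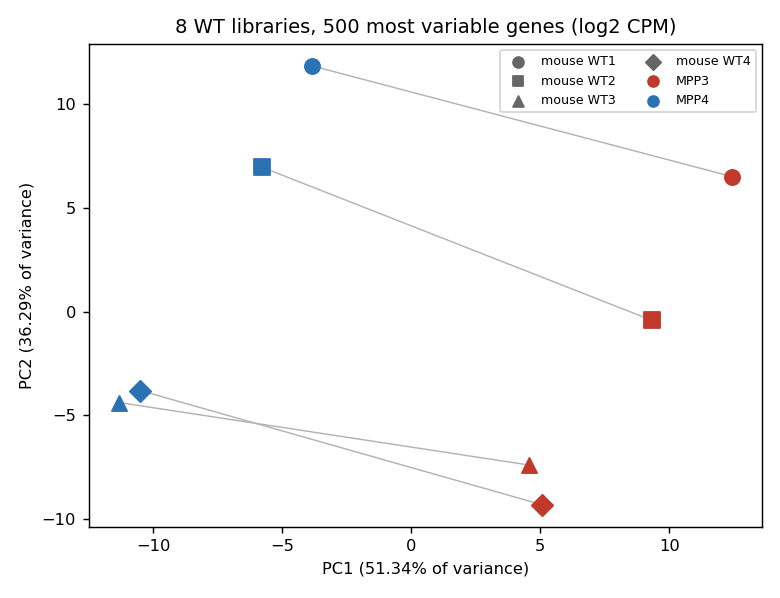
First and second principal components of the 8 WT libraries (counts variance-stabilised with DESeq2, although the panel title reads log2 CPM, 500 most variable genes), with colour for the population, symbol for the mouse, and a line joining both libraries of a mouse. MPP3 libraries lie to the right of all MPP4 libraries on the first axis (51.34% of the variance), and mice WT1 and WT2 lie above WT3 and WT4 of the same population on the second (36.29%).

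Of 11725 genes with a mean above 100 counts in either population, 1120 were higher and 1445 lower in MPP3 than in MPP4 (edgeR quasi-likelihood F-test with the mouse as a block, Benjamini-Hochberg FDR under 0.1). These were 9.55% and 12.3% of the tested genes, 21.9% together, and the median log2 fold change over all tested genes was -0.0045. Changes of at least 1 on the log2 scale numbered 298 among the higher and 346 among the lower genes, and changes of at least 3 numbered 72 and 64. The 4 MPP3 libraries did not overlap the 4 MPP4 libraries for 714 of the higher genes (6.09% of tested) and 890 of the lower genes (7.59%), against 7.41% and 8.46% of tested genes with such groups whether called or not, and all 4 mice changed in the direction of the call for 2414 of the 2565 called genes. Without the mouse block, 1601 genes were called, 713 higher and 888 lower. Without mouse WT4, 1570 were called. The count minimum was passed through only 1 population by 654 tested genes, of which 359 were called. Their direction was largely set by that filter, so their values are descriptions. Of the genes named here, those that passed through MPP3 alone were Alox5, Cebpe, Cybb, Fgf3, Gata1, Gp5, Igha, Ighg2b, Ighg3, Jchain, Mefv, Ms4a2, Ms4a3, Ngp, Pbx3, Prg2, S100a8, Slc45a3, Tcf7, Trbc1 and Zbtb16. Those that passed through MPP4 alone were Blk, Ccr7, Ccr9, Cd247, Ciita, Ebf1, Gm19331, Ighd, Ighv1-74, Ighv1-75, Ighv1-76, Ighv1-83, Il7r, Klhl30, Lifr, Mrvi1, Mzb1, Rag2, Rasal1 and Zap70. Of the called genes, 808 overlapped an exon of another annotated gene. Strand use in counting is not given, so counts of such genes are uncertain, among them Mpo, Prtn3, Ncf1, Rag2, Notch1, Satb1, Gata3, Hoxa9, Lck, Plk1, Irf7 and Cd74.

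The markers of the sort were read as a check of the labels and are no findings. Flt3 measured 265, 256, 315 and 292 CPM in MPP3 against 1171, 1162, 1380.0 and 1228 CPM in MPP4, with every MPP3 library below every MPP4 library. Kit (log2 fold change of MPP3 against MPP4 0.51 ± 0.06 SE) and Cd48 (0.41 ± 0.05) were higher in MPP3, and Ly6a, which encodes Sca1, was lower (-0.71 ± 0.09), each with groups that did not overlap. Slamf1, which encodes CD150, the marker that both gates exclude, was below the count minimum, with 28 to 116 counts in MPP3 and 9 to 29 in MPP4. Cd34 was lower by a small step (-0.13 ± 0.04, adjusted p = 0.0345), a call that was lost without the mouse block.

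Most transcripts of primary granules and early myeloid cells were higher in MPP3. Of 22 tested members of a 24-gene list, 13 were higher and 4 lower in MPP3, against 9.55% and 12.3% of all tested genes, with a list median of 0.72 on the log2 scale, and 3 members passed the count minimum through 1 population. Elane (ENSMUSG00000020125, chromosome 10, 79886247 to 79888215, GRCm38), the neutrophil elastase of these granules, measured 973, 808, 436 and 990.2 CPM in MPP3 and 41.6, 37.3, 11.9 and 43.6 CPM in MPP4. WT3 was the lowest mouse in both populations, and every MPP3 library lay far above every MPP4 library, with a log2 fold change of 4.66 ± 0.12 (25.2-fold, adjusted p = 5.64e-09). Mpo, myeloperoxidase, was abundant in both populations, with 4137 to 7002 CPM in MPP3 against 1492 to 2086 CPM in MPP4 (1.68 ± 0.08). Ctsg (1.66 ± 0.10) and Prtn3 (0.97 ± 0.06), serine proteases stored with elastase, were also higher. The membrane proteins Ms4a3, a marker of granulocyte-monocyte progenitors, and Igsf6 (3.30 on the log2 scale) were low in MPP4. Ms4a3 was at 86.4, 64.7, 46.0 and 83.9 CPM against 2.64, 3.14, 1.07 and 3.27 CPM (4.85 ± 0.17), having passed the count minimum through MPP3 alone. Against the direction of the list, Ncf1, a subunit of the phagocyte oxidase, was lower in MPP3 (-1.84 ± 0.10), at 22.9 to 37.5 CPM against 102 to 118 CPM, while Cybb, the catalytic subunit of that enzyme, which passed through MPP3 alone, was at 2.00 on the log2 scale. The lectin receptor Clec12a was lower too (-0.83 ± 0.08). Without WT2 or without WT3, 2 members of the list were called lower.

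**Figure D2:**
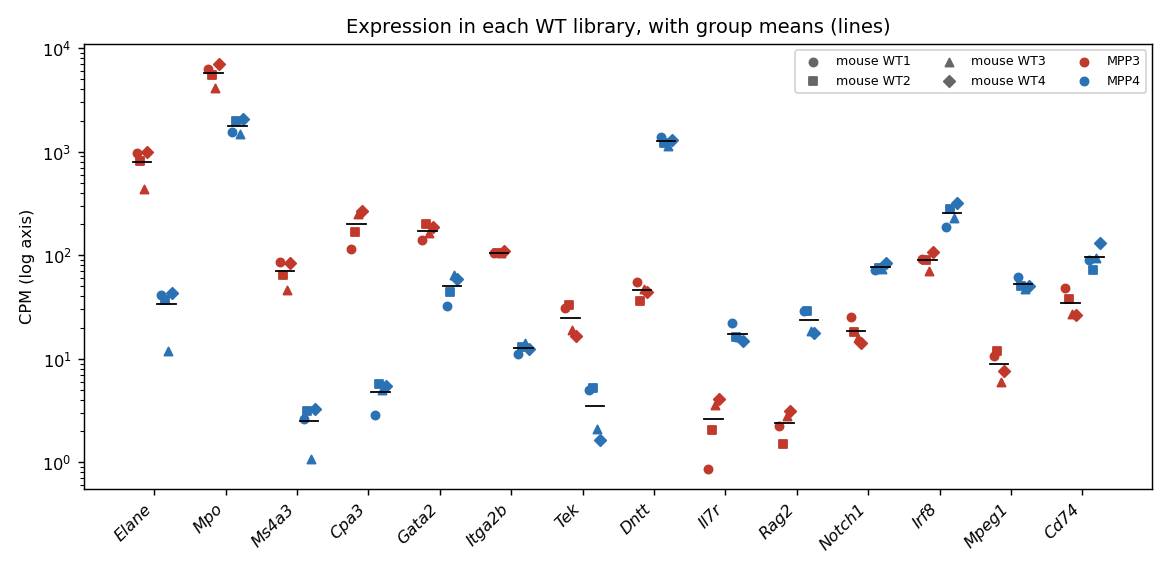
CPM of 14 genes in each of the 8 WT libraries on a log axis, with red for MPP3, blue for MPP4, a symbol for each mouse and a line at each group mean. The populations did not overlap for any gene shown: Elane, Mpo, Ms4a3, Cpa3, Gata2, Itga2b and Tek were higher in MPP3, and Dntt, Il7r, Rag2, Notch1, Irf8, Mpeg1 and Cd74 were higher in MPP4.

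The promoter of Ms4a3, the granule-list gene of at least 10 CPM with the largest difference, is shown as the RefSeq window of 300 bases from 250 before to 50 after the annotated start (GRCm38.p6, chr19:11640802-11641101, minus strand), with capitals for the letters GAGGAA, a core bound by ETS family factors such as PU.1. On either strand those letters occurred in 11 of the 19 granule-list promoters found (57.9%), against 26.6% of the 8869 promoters of tested genes and 28.3% of all 27025 promoters in the reference. They also occurred in 9 of 14 megakaryocyte promoters (64.3%), so they were not particular to the granule list. A match of this kind is a description of the letters and not evidence of binding.
Ms4a3: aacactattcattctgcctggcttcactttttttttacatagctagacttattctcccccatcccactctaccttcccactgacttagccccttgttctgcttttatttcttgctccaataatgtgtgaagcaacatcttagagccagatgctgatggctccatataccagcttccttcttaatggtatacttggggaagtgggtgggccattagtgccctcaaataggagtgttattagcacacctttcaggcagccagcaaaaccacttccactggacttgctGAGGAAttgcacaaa

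Of 14 tested genes of a myeloid transcription factor list, 2 were higher and 4 lower in MPP3, against 9.55% and 12.3% of all tested genes, with a median of 0.01. The list also holds the clock gene Per3. Spi1, which encodes PU.1, measured 263 to 299 CPM in MPP3 and 249 to 315 CPM in MPP4 (log2 fold change -0.03 ± 0.05, adjusted p = 0.73). Cebpa, the founding C/EBP factor of granulocyte development, measured 12.1 to 28.1 CPM and 10.1 to 30.9 CPM (0.06 ± 0.18, adjusted p = 0.88). Neither Cebpb (-0.50 ± 0.33) nor Cebpd (0.34 ± 0.17), Gfi1 (-0.32 ± 0.21), Klf4 (0.17 ± 0.30), Jun (0.06 ± 0.04) or Per3 (0.14 ± 0.10) passed the test. Cebpe, a later factor of granule formation that passed the count minimum through MPP3 alone, was at 10.2, 16.4, 10.3 and 16.4 CPM in MPP3 and 1.08, 0.913, 1.21 and 1.28 CPM in MPP4 (3.52 ± 0.26). Irf8, which directs monocyte and dendritic cell development, was lower in MPP3 at 92.9, 89.4, 69.95 and 107 CPM against 189, 278, 230.4 and 318 CPM (-1.49 ± 0.10), and Nfil3 was lower as well (-1.95 ± 0.20). The small calls for Fos (-0.16 ± 0.04), Egr1 (-0.35 ± 0.10) and Zeb2 (0.27 ± 0.07) rested on the mouse block and were lost without it. Without WT4 1 factor was called higher, and without WT2 2 were called lower.

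Receptors and mature-cell genes of the myeloid lineage moved in both directions. Of 16 tested cytokine and Fc receptors, 6 were higher and 6 lower, against 9.55% and 12.3% of all tested genes. Fcgr3, the Fc receptor CD16 that is used to gate granulocyte-monocyte progenitors, was at 49.1, 46.8, 28.8 and 53.4 CPM in MPP3 and 4.43 to 4.95 CPM in MPP4 (3.22 ± 0.18, adjusted p = 1.22e-06), and Fcgr2b (1.00 ± 0.14) and the shared signalling chain Fcer1g (0.76 ± 0.09) followed it. Lower in MPP3 were the interleukin 1 receptor Il1r1 (-1.36 ± 0.10), the interleukin 6 receptor Il6ra (-0.64 ± 0.15) and its partner Il6st (-0.76 ± 0.11). In the list of monocyte and dendritic cell genes, 4 of 18 were higher and 9 lower, beside the same shares of all tested genes. Ly6c2, the Ly6C antigen of monocytes, was at 77.4, 83.2, 32.3 and 93.6 CPM in MPP3 against 5.66 to 6.86 CPM in MPP4 (3.39 ± 0.20), and F13a1, coagulation factor XIII of monocytes, was also higher (1.76 ± 0.23). Tlr7, an RNA sensor of plasmacytoid dendritic cells, was at 1.80, 1.42, 4.97 and 3.97 CPM against 18.1, 25.2, 24.4 and 28.0 CPM (-3.08 ± 0.27), and Mpeg1 (-2.58 ± 0.15) and the protease Ctss (-1.79 ± 0.10) of antigen-presenting cells were lower too. Mature neutrophil genes were mostly below the count minimum, 11 of 15, including Ly6g at 0 counts in all 4 MPP3 libraries. Of the 4 that passed it, 3 did so through MPP3 alone, among them S100a8 at 7.45 to 16.9 CPM against 0.569 to 3.63 CPM. The summed level of this 15-gene list was 25.8 to 59.96 CPM in MPP3 and 5.01 to 13.02 CPM in MPP4, and its part in the granule result was not tested.

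Mast cell and basophil genes were higher in MPP3 or did not pass the test. Of 13 tested members 10 were higher in MPP3 and none was lower, against 9.55% higher among all tested genes, with a median of 1.83, and 3 members passed the count minimum through 1 population. Cpa3 (ENSMUSG00000001865, chromosome 3, 20215620 to 20242181), carboxypeptidase A of mast cell granules, measured 115, 168, 249 and 265 CPM in MPP3 and 2.88, 5.71, 5.01 and 5.41 CPM in MPP4. Every MPP3 library lay above every MPP4 library (5.38 ± 0.13, 41.5-fold, adjusted p = 5.64e-09). Gata2, the GATA factor of stem, mast and megakaryocytic cells, was at 139 to 202 CPM against 32.2 to 64.1 CPM (1.83 ± 0.13). Hdc, the enzyme that makes histamine (3.43 ± 0.31), Slc18a2, its vesicular transporter (2.91 ± 0.09), and Ms4a2, the beta chain of the IgE receptor (5.20 ± 0.59), were higher as well. Slc45a3 had 413 counts in MPP3 and 3 in MPP4, a ratio of 162 per library total with a 95% exact counting interval from 54.9 to 787. That interval covers counting error only and no spread between mice, and all 3 counts came from WT4. Unlike Cpa3, the mast cell proteases Cma1, Mcpt1 and Tpsab1 were scarce. Cma1 had 30 to 143 counts in MPP3 libraries and 0 in every MPP4 library, and Mcpt1 and Tpsab1 were at 0 throughout. Of the eosinophil list 8 of 10 genes were below the count minimum. Siglecf was at 17.1 to 28.5 CPM against 3.37 to 8.92 CPM (1.85 ± 0.22), and Prg2, the granule major basic protein, which passed through MPP3 alone, was at 37.1, 9.02, 12.5 and 11.6 CPM against 0.141, 2.16, 0.481 and 0.308 CPM.

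Most megakaryocyte and stem cell genes were higher in MPP3 too. Of 19 tested megakaryocyte genes 16 were higher and 1 lower, against 9.55% and 12.3% of all tested genes, with a median of 1.01 and 3 members that passed the count minimum through 1 population. Itga2b (ENSMUSG00000034664, chromosome 11, 102453297 to 102470122), the platelet integrin CD41, was nearly constant within each population at 105, 104, 104 and 110.5 CPM in MPP3 and 11.1, 12.9, 14.1 and 12.3 CPM in MPP4 (3.08 ± 0.09, 8.44-fold, adjusted p = 2.32e-08). The adhesion molecule Selp was higher (2.31 ± 0.14), and the platelet glycoprotein Gp5, which passed through MPP3 alone, was at 3.48 ± 0.36. The lower member was Mef2c (-1.09 ± 0.06), which is also a lymphoid factor. Among 16 tested erythroid genes 8 were higher and none lower, against the same background shares, with the factor Gata1 at 6.13 to 15.98 CPM against 1.40 to 2.05 CPM (2.84 ± 0.32), whereas none of the 3 tested globin genes was called. Of 27 tested stem cell genes 18 were higher and 2 lower, against 9.55% and 12.3% of all tested genes, with a median of 0.51 and 2 members that passed the count minimum through 1 population. Tek, the receptor Tie2, was at 30.9, 33.0, 18.8 and 16.8 CPM in MPP3 and 4.999, 5.27, 2.11 and 1.64 CPM in MPP4 (2.93 ± 0.18), and Esam, a junction protein of stem cells, was at 39.2 to 73.1 CPM against 7.38 to 10.6 CPM (2.48 ± 0.13). Hoxa9, a homeobox factor of stem and progenitor cells, went the other way (-0.78 ± 0.06), and among 9 tested Hox and cofactor genes, beside the same background shares, 3 were higher, among them the cofactors Meis1 and Pbx3, and 3 were lower, all of them Hoxa genes. Without WT3 or without WT4 1 of this list was called higher, and 2 of its members passed the count minimum through 1 population. Endothelial and stromal markers were few, with 4 of 15 above the count minimum and Col3a1 and Dcn at 0 in all 8 libraries.

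The promoters of Cpa3 (chr3:20242132-20242431, minus strand) and Gp5 (chr16:30310732-30311031, minus strand), chosen from their lists by the same rule, are shown with capitals for AGATAA, the core of sites bound by GATA factors, or its reverse complement. These letters occurred in 5 of 13 mast cell and basophil promoters (38.5%) and 3 of 14 megakaryocyte promoters (21.4%), against 6.29% of the promoters of tested genes and 11.4% of all promoters. Among genes called higher in MPP3 the share was 8.88%, and among genes not called 5.91%.
Cpa3: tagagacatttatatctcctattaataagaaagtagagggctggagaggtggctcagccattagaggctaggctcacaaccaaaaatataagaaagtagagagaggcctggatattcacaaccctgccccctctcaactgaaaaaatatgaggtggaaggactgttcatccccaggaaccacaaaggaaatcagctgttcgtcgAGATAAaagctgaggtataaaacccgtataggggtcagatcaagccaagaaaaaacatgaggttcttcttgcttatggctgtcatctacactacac
Gp5: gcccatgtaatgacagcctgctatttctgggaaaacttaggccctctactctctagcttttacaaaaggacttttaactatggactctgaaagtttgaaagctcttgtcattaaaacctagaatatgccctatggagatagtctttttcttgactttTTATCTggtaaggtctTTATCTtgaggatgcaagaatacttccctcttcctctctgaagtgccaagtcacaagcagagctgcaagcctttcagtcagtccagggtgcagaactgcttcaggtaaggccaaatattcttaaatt

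Most early lymphoid genes were higher in MPP4. Of 26 tested members of the lymphoid priming list 22 were lower in MPP3 and 1, Il2rg, was higher, against 12.3% lower among all tested genes, and the list median was -1.45. The call of Il2rg was lost without the mouse block, and 5 members passed the count minimum through 1 population. Flt3 itself is among the 22 and was used in the sort. Dntt (ENSMUSG00000025014, chromosome 19, 41029275 to 41059525), the terminal transferase that adds bases at the joints of antigen receptor genes, measured 55.6, 36.1, 47.6 and 43.8 CPM in MPP3 and 1391, 1213, 1146 and 1305 CPM in MPP4. The lowest MPP4 library stood above the highest MPP3 library by far more than the spread in either group (-4.80 ± 0.08, 27.8-fold lower, adjusted p = 5.54e-10). Rag2, a subunit of the recombinase that cuts those genes, was at 2.22, 1.496, 2.79 and 3.12 CPM against 28.8, 29.2, 18.5 and 17.8 CPM (-3.26 ± 0.29). Il7r, the interleukin 7 receptor that supports lymphoid progenitors, was at 0.87, 2.05, 3.56 and 4.09 CPM against 22.4, 16.3, 16.1 and 15.0 CPM (-2.82 ± 0.39). The chemokine receptors Ccr9 (-4.37 ± 0.50) and Ccr7 (-3.60 ± 0.40), which guide progenitors to the thymus, were both below 4 CPM in every MPP3 library and at 12.8 to 23.4 CPM in MPP4. Mn1, a transcriptional cofactor, was at 22.6 to 33.0 CPM against 158 to 194 CPM (-2.67 ± 0.10).

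The promoter of Dntt (chr19:41029025-41029324, plus strand) is shown as the example of this group. The letters CAGCTG, an E box bound by E proteins, are not in this window. They occurred in 2 of 20 lymphoid priming promoters (10.0%) and in 14.2% of the promoters of tested genes, and TGTGGT, a core bound by RUNX factors, occurred in 7 of 20 (35.0%) against 12.7%. In the granule list, most of it higher in MPP3, TGTGGT occurred in 8 of 19 promoters (42.1%).
Dntt: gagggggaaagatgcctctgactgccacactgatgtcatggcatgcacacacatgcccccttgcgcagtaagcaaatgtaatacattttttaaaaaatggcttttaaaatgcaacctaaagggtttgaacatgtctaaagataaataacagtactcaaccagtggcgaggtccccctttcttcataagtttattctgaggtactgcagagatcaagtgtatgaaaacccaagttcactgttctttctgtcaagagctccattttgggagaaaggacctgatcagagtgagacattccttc

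Lymphoid transcription factors did not move as a block. Of 23 tested, 10 were lower and 4 higher in MPP3, against 12.3% and 9.55% of all tested genes. Notch1, the receptor that starts T cell development and acts as a transcription factor once cleaved, was at 25.5, 18.0, 15.8 and 14.3 CPM in MPP3 and 72.4, 74.7, 74.4 and 83.7 CPM in MPP4 (-2.08 ± 0.15, 4.24-fold lower, adjusted p = 8.14e-06). Ets1 (-1.43 ± 0.13), the chromatin organiser Satb1 (-1.42 ± 0.07) and Mef2c (-1.09 ± 0.06) were lower with groups that did not overlap, and so were Bcl11a (-0.65 ± 0.07) and Runx2 (-0.31 ± 0.07). Ikzf1, the founding Ikaros factor, was lower in each of the 4 mice, at 154, 220.3, 237 and 260.1 CPM against 221, 331, 359.6 and 396 CPM, though the groups overlapped (-0.58 ± 0.05). Sox4 (-0.39 ± 0.10) and Lyl1 (-0.22 ± 0.07) made up smaller calls, lost without the block. Higher in MPP3 were Tcf7, the T cell factor TCF1, at 5.37, 13.6, 8.37 and 9.47 CPM against 0, 2.27, 1.09 and 0.119 CPM (4.09 ± 0.69), Gata3 at 34.7 to 43.9 CPM against 18.8 to 21.9 CPM (0.98 ± 0.10), Ikzf2 (0.78 ± 0.11) and Fli1 (0.22 ± 0.06). Bach2 (-0.52 ± 0.21), Tcf3 (-0.34 ± 0.14), Notch2 (-0.18 ± 0.12), Runx1 (0.12 ± 0.07), Runx3 (0.12 ± 0.08), Etv6 (0.10 ± 0.06), Tcf12 (0.17 ± 0.10), Id2 (0.07 ± 0.15) and Foxo1 (0.18 ± 0.26) did not pass the test.

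Ebf1, the B lineage factor on which the series is built, was scarce in both populations of the WT mice. It measured 0.15, 0.827, 2.21 and 2.10 CPM in MPP3 and 4.41, 3.31, 4.16 and 6.24 CPM in MPP4, where 3 counts correspond to about 0.1 CPM. Every MPP4 library exceeded every MPP3 library (-2.05 ± 0.51, adjusted p = 0.0206), and the call was lost without the block (adjusted p = 0.112). Gene totals in the libraries labelled KO were 6 to 84 counts in MPP3 and 488 to 928 counts in MPP4, against 5 to 91 and 98 to 263 counts in WT. The MPP4 libraries labelled KO thus held more Ebf1 counts than every WT library, and the gene total does not show whether the reads cover the deleted part. Of the 16 listed B lineage markers 10 were below the count minimum, with Pax5 at 1 to 43 counts in MPP3 and 0 to 129 in MPP4. The kinase Blk (-2.67 ± 0.98) and the surface protein Cd72 (-0.28 ± 0.07) were the 2 called of 6 tested, both lower in MPP3, against 12.3% of all tested genes, and both lost without the block. Without WT2 or without WT4 1 was called. Of the 6 tested, 3 passed the count minimum through 1 population, among them Blk through MPP4 alone.

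T and natural killer cell genes moved in both directions in these lineage-depleted cells. Of 7 tested, 4 of which passed the count minimum through 1 population, 4 were lower in MPP3 beside 12.3% of all tested genes, with the kinases Lck at 42.4 to 52.8 CPM against 125 to 148 CPM (-1.58 ± 0.09) and Zap70 (-2.26 ± 0.31) and the signalling chain Cd247 (-1.95 ± 0.28), and 2 were higher beside 9.55% of all tested genes, Thy1 at 9.37 to 12.7 CPM against 1.76 to 2.90 CPM (2.14 ± 0.22) and Trbc1, a constant region of the T cell receptor beta chain, at 5.67, 9.88, 7.03 and 8.85 CPM against 0.0472, 0.372, 0.878 and 0.261 CPM (4.55 ± 0.50). The defining surface genes of mature T cells were close to 0, with Cd3e at 0 to 36 counts and Cd8a at 0 to 20 counts in the 8 libraries.

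Antigen receptor segments were examined after their values had been seen, since 40 of the 49 that were tested were called, against 21.9% of all tested genes. At the heavy chain locus most called segments were higher in MPP4 or high in single MPP3 libraries. The summed J segments were at 3.03, 2.60, 1.21 and 1.36 CPM in MPP3 and 20.5, 19.2, 26.8 and 21.5 CPM in MPP4, and Ighd was at 0.0768 to 0.66 CPM against 9.34 to 14.7 CPM (-5.16 ± 0.48). Ighm, the constant region of IgM, was the most abundant at 796, 475, 267 and 197 CPM against 1083, 1085, 1188 and 1160.0 CPM (-1.59 ± 0.28). All 9 heavy chain V segments that were lower in MPP3, 2 of them pseudogenes, had groups that did not overlap, and 8 of the 9 were neighbours in a stretch of chromosome 12 from 115802648 to 115964250 (Ighv1-74 to Ighv1-83, GRCm38). That stretch holds 13 annotated V segments, of which 10 were tested and none was higher in MPP3, and the 8 had log2 fold changes from -6.53 to -4.14. Of these, Ighv1-75, Ighv1-76 and Ighv1-83 averaged 1.5, 2.5 and 2.25 counts in MPP3 and passed the count minimum through MPP4 alone. The direction of such segments, which count among the 40 called, was largely set by that filter.

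At the light chain loci the direction was opposite and uneven between mice. Igkc, the kappa constant region, measured 379.7, 360.4, 83.5 and 68.4 CPM in MPP3 and 1.37, 17.4, 2.90 and 1.09 CPM in MPP4 (5.59 ± 0.48, adjusted p = 2.52e-05). Jchain, which joins secreted IgM and IgA and passed the count minimum through MPP3 alone, was at 133, 75.9, 36.8 and 34.9 CPM against 0.236, 7.24, 0.167 and 0.64 CPM (5.82 ± 0.69). In MPP3, WT1 and WT2 were the highest mice for both genes. Of 17 tested kappa V genes 15 were higher in MPP3, beside 9.55% of all tested genes, but 13 of those 15 had at least 90% of their counts in 1 library and none had groups that did not overlap. In MPP4 all annotated kappa V genes together held 1.297, 13.39, 1.505 and 0.854 CPM. Most of those tested could thus pass the count minimum only through MPP3, and their direction was largely set by that filter. Over the whole comparison, 18 called genes had at least 90% of their counts in 1 library, and all 18 were V segments of the heavy or kappa chain. Of the other plasma cell genes, Sdc1, the surface marker CD138, was lower in MPP3 at 6.66, 11.6, 7.05 and 4.38 CPM against 142, 96.4, 82.8 and 64.7 CPM (-3.72 ± 0.19), Fkbp11, a chaperone of secretory cells, was higher (0.93 ± 0.16), and Xbp1 and Mzb1 did not pass the test. Class-switched constant regions were high in 1 or 2 MPP3 libraries and were not called. Ighg3 had 2187 and Ighg2b 1237 counts in WT2 and at most 71 counts in any other library, and Igha had 362 counts in WT1 and 650 in WT4 and at most 55 elsewhere. The factors Prdm1 and Irf4 were below the count minimum, at 10 to 17 and 0 to 15 counts in MPP3. The summed plasma cell list was 362 to 950 CPM in MPP3 and 273 to 486 CPM in MPP4, and the part of such cells in the MPP3 profile was not tested.

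**Figure D3:**
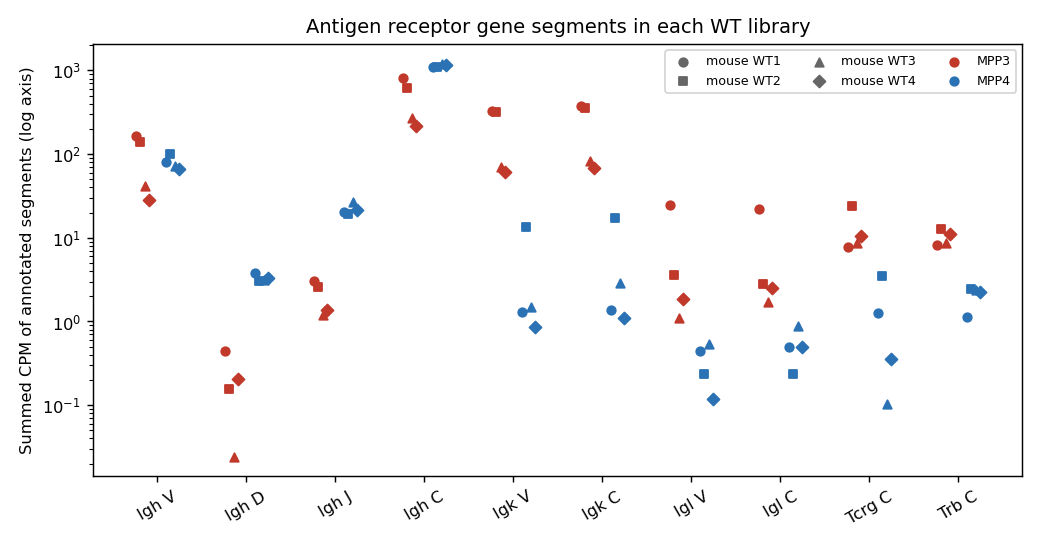
Summed CPM of the annotated segments of 10 antigen receptor classes in each WT library on a log axis, with red for MPP3, blue for MPP4 and a symbol for each mouse. Heavy chain D and J segments lie higher in all 4 MPP4 libraries, and kappa V and C segments lie higher in all 4 MPP3 libraries, where mice WT1 and WT2 reach 325 and 319 CPM for kappa V against 70.8 and 61.9 CPM in WT3 and WT4.

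Most antigen presentation genes were lower in MPP3. Of 10 tested MHC class II genes 8 were lower and none higher, against 12.3% lower among all tested genes, with a median of -1.07. H2-Eb1 (ENSMUSG00000060586, chromosome 17, 34305867 to 34316674), a beta chain of the peptide-presenting complex, was at 4.89, 3.70, 5.14 and 6.34 CPM in MPP3 and 14.5, 9.53, 13.6 and 21.5 CPM in MPP4 (-1.53 ± 0.17). The alpha chain H2-Aa (-1.50 ± 0.19) and the invariant chain Cd74 (-1.49 ± 0.21) were close to it in size, and Ciita, the master activator of these genes, was lower by -1.13 on the log2 scale. In the interferon response list 12 of 28 were lower and 1 higher, against 12.3% and 9.55% of all tested genes (median -0.24). Of the 28, 3 passed the count minimum through 1 population. Irf7 was at 25.6 to 42.4 CPM against 55.8 to 68.5 CPM (-0.88 ± 0.10), Irf9 was lower (-0.55 ± 0.07), and the GTPase Gbp2 was the member that was higher (0.41 ± 0.08). Without the mouse block 6 members were called lower, without mouse WT4 7 were, and in a fit of all 16 libraries without the block 4 were.

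The promoter of H2-Eb1 (chr17:34305617-34305916, plus strand) is shown with capitals for ATTGG or its reverse complement, the core of the CCAAT box, called the Y box in genes of this class. These letters occurred in 6 of the 7 MHC class II promoters found (85.7%), against 39.2% of the promoters of tested genes and 37.9% of all promoters.
H2-Eb1: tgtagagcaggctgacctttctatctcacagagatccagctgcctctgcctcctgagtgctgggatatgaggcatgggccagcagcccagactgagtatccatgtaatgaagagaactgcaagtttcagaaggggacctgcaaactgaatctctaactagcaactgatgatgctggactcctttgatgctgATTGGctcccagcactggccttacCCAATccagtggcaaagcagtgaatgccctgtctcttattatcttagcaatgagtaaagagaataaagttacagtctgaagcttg

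Most mitosis genes were lower in MPP3. Of 40 mitosis genes, all tested, 31 were lower in MPP3 and none higher, against 12.3% lower among all tested genes, yet each difference was small, with a list median of -0.31 and a largest change of -0.64. Kif23, a kinesin of cell division, was at 98.7, 88.4, 94.7 and 85.5 CPM in MPP3 and 140.1, 143, 152 and 139 CPM in MPP4 (-0.64 ± 0.07, 1.56-fold lower, adjusted p = 8.87e-05). Plk1, a mitotic kinase, was lower in all 4 mice (-0.54 ± 0.07), although MPP3 of WT1 at 115 CPM was above the lowest MPP4 library at 114 CPM, and Ube2c, a ubiquitin enzyme of mitotic exit, was lower too (-0.52 ± 0.07). Of 38 S phase genes 3 were higher and 2 lower, against 9.55% and 12.3% of all tested genes, with a median of 0.01. Without the mouse block 0 S phase genes were called higher and 1 lower, and without WT3 or without WT4 none was called in either direction. Among cyclin-dependent kinases, inhibitors and D cyclins, Cdk6 was higher in MPP3 (0.44 ± 0.06), and Ccnd1 (-0.95 ± 0.10), Ccnd2 (-0.37 ± 0.06) and the inhibitor Cdkn1a (-0.65 ± 0.10) were lower.

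The promoter of Kif23 (chr9:61946750-61947049, minus strand) is shown with capitals for TTTGAA, the cell cycle genes homology region found near the start of many mitotic genes. The letters, on either strand, occurred in 25 of 36 mitosis promoters (69.4%) against 12.1% of the promoters of tested genes and 18.1% of all promoters, and ATTGG occurred in 27 of the 36 (75.0%) against 39.2%. Among all genes lower in MPP3 the share with TTTGAA was 14.4%.
Kif23: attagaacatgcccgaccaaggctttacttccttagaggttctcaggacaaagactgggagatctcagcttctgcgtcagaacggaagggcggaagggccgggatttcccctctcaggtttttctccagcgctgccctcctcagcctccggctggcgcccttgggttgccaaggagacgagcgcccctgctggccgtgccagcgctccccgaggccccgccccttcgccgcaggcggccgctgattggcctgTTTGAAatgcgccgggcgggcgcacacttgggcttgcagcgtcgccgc

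The remaining lists are set against 9.55% higher and 12.3% lower among all tested genes. In the list of protein folding and secretion in the endoplasmic reticulum 18 of 36 genes were higher in MPP3 and none was lower, with a median of 0.16, beside 9.55% and 12.3% of all tested genes. Calr, a calcium-binding chaperone, was at 1065, 1063, 940.4 and 1193 CPM against 678, 746, 619 and 698 CPM (0.64 ± 0.05). Without the mouse block 8 members were called, and without WT4 12 were. In glycolysis 9 of 20 were higher and 1 lower, beside 9.55% and 12.3% of all tested genes, with the hexokinases Hk3 (0.92 ± 0.07), Hk1 (0.67 ± 0.10) and Hk2 (0.54 ± 0.12). In the list of lysosomal and granule hydrolases 8 of 30 were higher, with Cd63 at 1.49 ± 0.06, and 4 were lower, near the share of all tested genes, with Lgmn at -1.93 ± 0.31. Without WT4 5 were called higher. Called genes in the Myc network (2 higher and 2 lower of 25), haem and iron (3 and 1 of 20) and apoptosis (1 and 1 of 12) lists were near the 21.9% of all tested genes, and single calls in the first pair of lists were lost when 1 mouse was left out. The apoptosis pair was Bcl2l1, which encodes Bcl-xL and was higher (0.42 ± 0.10), and Bcl2, which was lower (-0.61 ± 0.07). In the MAPK and Ras feedback list 7 of 16 were lower, beside 12.3% of all tested genes, with Dusp5 (-1.28 ± 0.15) and Dusp2 (-1.02 ± 0.12) among them, and without the block 3 were. Of 9 Notch pathway genes 4 were lower, beside the same 12.3%, including the glycosyltransferase Lfng (-0.91 ± 0.13) and the ligase Dtx4 (-1.60 ± 0.23), and the protease Adam10 was higher (0.34 ± 0.05). Homing and adhesion genes divided, with 5 of 18 higher, among them Itga6 (0.91 ± 0.13), and 9 lower, beside 9.55% and 12.3% of all tested genes, among them Emb (-0.98 ± 0.05). Of these 18, 4 passed the count minimum through 1 population. Without the block 3 were called higher. In a list of partners of Ikaros and ETS factors 4 of 15 were higher and 3 lower, beside 9.55% and 12.3% of all tested genes, and Zbtb16, which passed through MPP3 alone, was at 4.22 ± 0.39. Without WT3 1 was called lower.

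**Figure D4:**
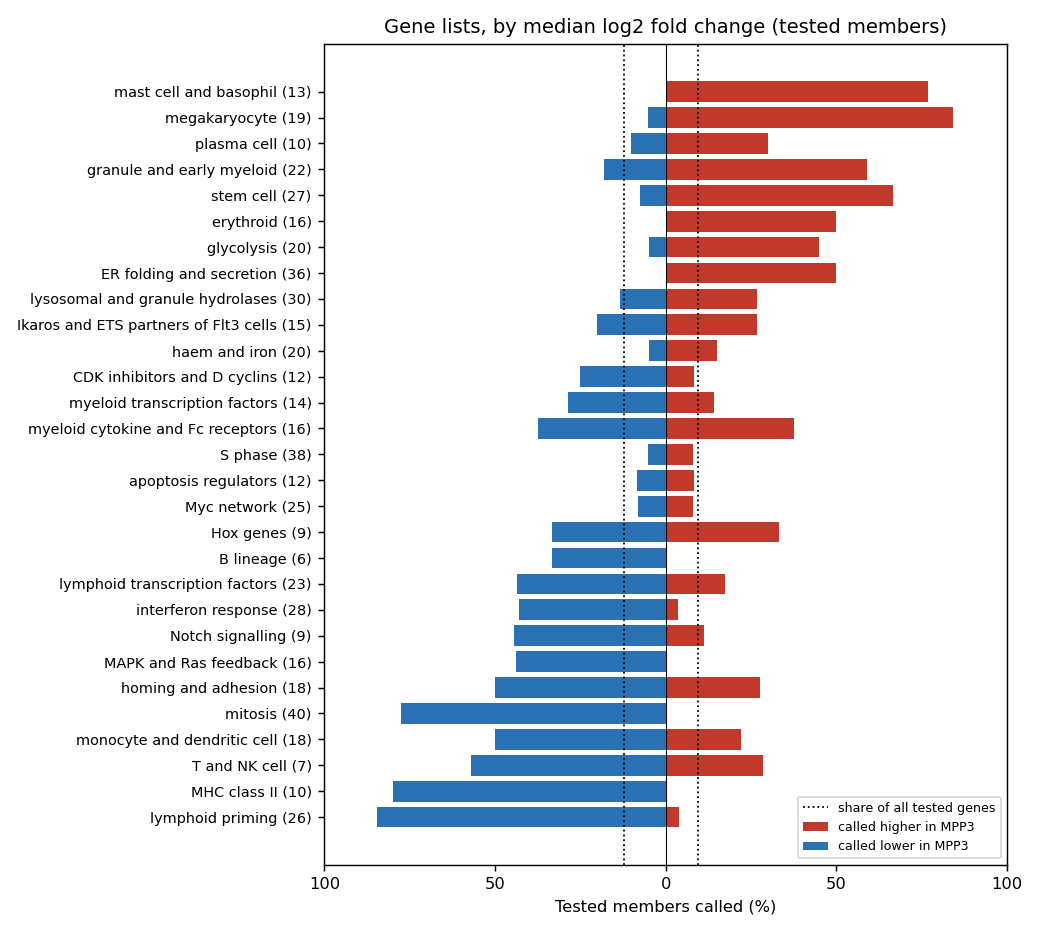
Share of the tested members of the 29 gene lists with at least 6 tested members (number in brackets) called higher in MPP3 (red, to the right) or lower (blue, to the left), ordered by the median log2 fold change, with dotted lines at the share of all tested genes in each direction (9.55% and 12.3%). Mast cell and basophil, megakaryocyte, granule and stem cell lists reach furthest right, and lymphoid priming, MHC class II and mitosis lists furthest left.

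Outside the lists, the genes with the largest differences and groups that did not overlap were mostly near the floor in 1 population. Fgf3, Alox5, Mefv, Lifr, Rasal1, Mrvi1, Klhl30 and Gm19331 each passed the count minimum through 1 population alone. Fgf3, a fibroblast growth factor, was at 31.7, 30.2, 23.3 and 29.2 CPM in MPP3 and 0.397 to 0.778 CPM in MPP4 (5.74 ± 0.21). Alox5, the leukotriene-forming lipoxygenase, and Mefv, the pyrin gene, were at 4.95 to 7.83 and 1.89 to 5.78 CPM in MPP3 and below 1 CPM in every MPP4 library. Lifr, the receptor of leukaemia inhibitory factor, had 0 counts in all 4 MPP3 libraries and 3.25, 4.77, 2.55 and 4.98 CPM in MPP4, and was at least 43.5-fold higher in MPP4 than 3 counts per MPP3 library. Rasal1, a Ras GTPase activator, was at 10.7 to 19.9 CPM in MPP4 and at 0 in MPP3 of 3 mice (-6.46 ± 0.88), and Mrvi1 was at 6.90 to 11.9 CPM against 0 to 0.412 CPM (-5.84 ± 0.70). Klhl30 (-6.73 ± 0.64) and the unnamed transcript Gm19331 (-6.75 ± 0.72) were of like size. Among the smallest p-values were abundant genes. Apoe, apolipoprotein E, was at 308, 363, 257 and 324 CPM against 21.5, 34.7, 26.4 and 22.9 CPM (3.58 ± 0.10), and Sdsl, a serine dehydratase-like enzyme, was also higher in MPP3 (2.66 ± 0.08). Il12a, a subunit of interleukin 12, was at 44.8, 55.1, 71.0 and 53.5 CPM against 227, 249.9, 296 and 278 CPM (-2.24 ± 0.07), and Wfdc17 was lower as well (-3.29 ± 0.11).

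The same contrast in the 4 mice labelled Ebf1 KO, which share no library with the WT mice, held 3488 called genes, 1684 higher and 1804 lower in MPP3 (29.7% of those tested). Of the 2565 genes called in WT, 1948 were called in the same direction in KO, which is 75.9% of the WT calls and 55.9% of the KO calls, and 3 were called in the opposite direction. Across the 11725 genes the log2 fold changes of both genotypes had a Pearson correlation of 0.729 and a Spearman correlation of 0.699, and without immunoglobulin and T cell receptor genes the Pearson correlation was 0.866 across 11676 genes. Genes are not independent replicates, and these are descriptions. Elane (5.43 ± 0.15 in KO), Cpa3 (4.98 ± 0.18), Itga2b (2.97 ± 0.15), Dntt (-5.05 ± 0.13), Notch1 (-2.14 ± 0.14) and H2-Eb1 (-1.23 ± 0.16) kept their directions, and 36 of the 40 mitosis genes were lower in MPP3 labelled KO, against 15.4% of all tested genes. Jchain did not pass the test in KO (-1.23 ± 1.25), where the group means of 5.19 CPM in MPP3 and 1.16 CPM in MPP4 went the other way, and Igkc was at 0 CPM in MPP3 of 3 of the 4 mice labelled KO and at 60.6 CPM in the other. The difference of the contrast between genotypes was called for 2 genes, 0.0171% of those tested, and DESeq2 called 28. Without the mouse block 0 were called, and without WT3 or WT4 1 was. Mt1, a metallothionein, was higher in WT MPP3 (1.98 ± 0.21) but not in KO (0.06 ± 0.07), a difference of 1.93 ± 0.19 (adjusted p = 0.00114), and Tek differed by 1.89 ± 0.25 (adjusted p = 0.0218). Tek is the gene whose promoter drives the Cre transgene in the mice labelled KO.

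**Figure D5:**
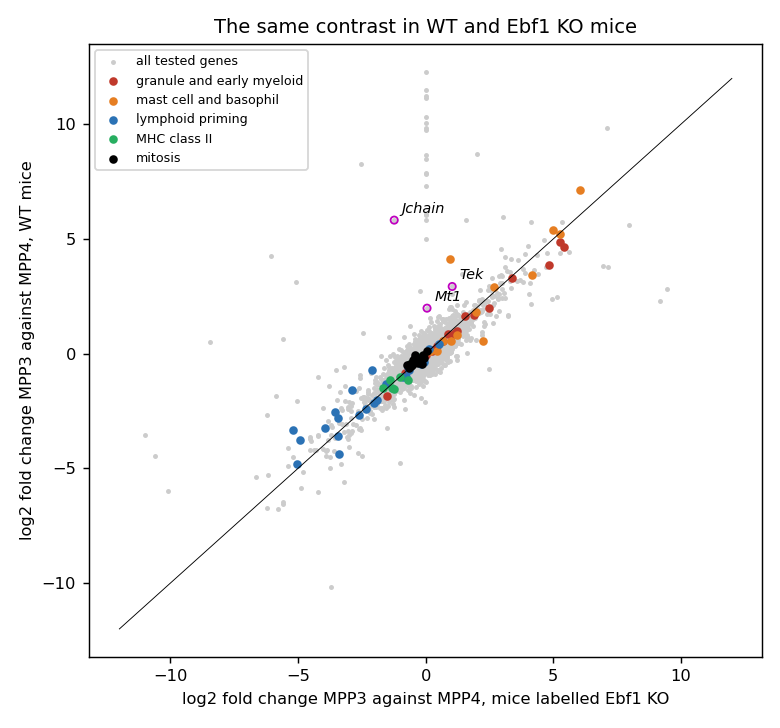
Log2 fold change of MPP3 against MPP4 in mice labelled KO (horizontal axis) and WT mice (vertical axis) for all tested genes (grey), with 5 gene lists in colour, rings at Mt1, Tek and Jchain, and a line of equal change. Most list members lie near the line, and the column of grey points at 0 on the horizontal axis holds genes with no counts in the libraries labelled KO.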

How the data were processed

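RNA of sorted MPP3 and MPP4 cells was sequenced by the study as paired-end reads of 100 bases. Per the submitters' processing notes, reads were aligned to mm10 with STAR 2.7.3a and counted with featureCounts 2.0.0, and the authors deposited raw counts per gene for each population. Annotation release and strand use are not given in the sources used here. A deposited table of counts divided by size factors was not used. Symbols and coordinates came from GENCODE M21 (GRCm38), which matched 47224 of 47937 identifiers, and promoters from RefSeq (GRCm38.p6), found for 8869 of 11725 tested symbols with the first window of each symbol. Of the motifs, each was searched on both strands and overlaps between motifs were allowed.

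The tests used edgeR 4.0.16 under R 4.3.3 on raw counts (TMM, quasi-likelihood F-test, legacy deviances) on the 8 WT libraries, with population as the effect and mouse as a block. Genes with a mean above 100 counts in either population were kept, and an FDR under 0.1 was called. CPM used TMM-scaled totals. Positive log2 fold changes mean higher in MPP3, ± is the standard error, and 3 counts were taken as the floor of a count of 0, for counting error only. The mouse was the block because both libraries of a number came from 1 mouse. Same-numbered libraries deviated together (correlations of 0.530, 0.216, 0.386 and 0.514). Some libraries of different mice did too, with 0.262 for MPP3 of WT1 and MPP4 of WT2 and 0.275 for MPP3 of WT4 and MPP4 of WT3. The lowest value, for MPP3 of WT1 and MPP4 of WT3, was -0.439. No pair of replicates was a duplicate, with a chi-square of at least 23.8 per gene. The labels do not state separate days or batches. Mice labelled KO and the difference between genotypes were fitted in the same way, on the same genes, which were kept by their WT counts only. DESeq2 1.42.0 was an alternative, and the scripts were tested on simulated counts.

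The comparison, gene lists and tests were chosen with earlier results of these data known. Named genes were the sort markers, the 8 largest non-overlapping changes of at least 1 CPM and the 5 smallest p-values in each direction, up to 3 called members per list and direction with the largest changes (at least 10 CPM where enough qualified), all listed myeloid and lymphoid factors, and genes whose list call was lost. Mpo, Prtn3, Cybb, Rag2, Il7r, Ciita, Xbp1, Mzb1, Ighm, Ighd, Ighg3, Ighg2b, Igha, Mt1 and the genes given by counts alone were named after their values were seen.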

Additional observations from a re-analysis of the deposited data

Results flagged for a closer look

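Of 348 groups of 4 libraries checked (174 named genes in MPP3 and in MPP4), 17 held a library far from the other 3, and chance sets apart about 1 group in 20. In MPP4 of WT2, Igkc was at 17.38 CPM against 1.09 to 2.90 CPM in the others, Jchain at 7.235 CPM against 0.167 to 0.64 CPM, Prg2 at 2.164 CPM against 0.141 to 0.481 CPM and Bcl2 at 145.0 CPM against 119 to 121 CPM. In MPP3 of WT3, Ngp, a neutrophil granule protein, was at 15.44 CPM against 1.41 to 3.39 CPM and Lck at 52.76 CPM against 42.4 to 43.1 CPM, while Cxcr2, a neutrophil chemokine receptor, was at 5.673 CPM against 10.6 to 10.8 CPM and Rasgrp2 at 162.8 CPM against 189 to 193 CPM. Gm19331 and Klhl30 were at 0.2909 and 0.1697 CPM in that library and 0 in the other 3. In MPP3 of WT1, Prg2 was at 37.1 CPM against 9.02 to 12.5 CPM, Plk1 at 115.4 CPM against 80.3 to 85.5 CPM and Rasal1 at 0.9598 CPM against 0. In MPP3 of WT2, Zap70 was at 1.535 CPM against 0.819 to 0.87 CPM. In MPP4 of WT4, H2-Aa was at 38.62 CPM against 23.2 to 24.5 CPM, and Alox5 and Slc45a3 were at 0.8065 and 0.07117 CPM against 0.

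The contrast of MPP3 against MPP4 differed between WT mice and mice labelled KO for 2 genes by the interaction test of edgeR. The differences were 1.886 on the log2 scale for Tek (adjusted p = 0.0218) and 1.9302 for Mt1 (adjusted p = 0.00114). Mt1 averaged 137 and 134 CPM in MPP3 and MPP4 of mice labelled KO, and in WT it was at 9.41 to 25.6 CPM and 3.64 to 5.55 CPM.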

How the results depend on the processing

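The count of 2565 called WT genes became 1601 without the replicate block (713 higher, 888 lower, of which 1595 kept call and direction), 1604 when groups also had not to overlap (714 and 890, an alternative chosen after seeing the data), and 1570 to 2471 with 1 mouse left out (670 to 1046 higher and 900 to 1425 lower, lowest without replicate 4). In mice labelled KO 3488 became 1936 without the block (910 and 1026) and 2444 to 3091 with 1 mouse left out (1191 to 1468 higher, 1253 to 1623 lower). The 2 genes that differed between genotypes became 0 without the block, 28 by DESeq2 (15 and 13), and 1 to 4 with 1 WT mouse left out (1 to 3 higher, 0 to 1 lower). The 284 list members called ranged from 207 to 299, and from 231 to 264 with 1 mouse left out. Of 2605 values of named genes under the alternatives, 2436 kept their side of the threshold and direction, 160 lost their call, 9 gained one and 0 reversed. Low counts limit genes near 1 CPM, and 4 mice limit small changes.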
